A study of Rattus norvegicus with 4 samples.

Results

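Genes of the contractile apparatus of smooth and skeletal muscle were followed in visceral fat, taken from male Wistar rats at 130 days of age and measured on 4 single-colour oligonucleotide arrays. The labels give 2 control arrays (Control 1 and Control 2) and 2 arrays of obese animals (Obese rat 1 and Obese 2, here Obese 1 and Obese 2), and they do not give the cause of the obesity, the visceral depot taken, or any pooling of animals. The set was chosen by name, with earlier results of these data known, and holds 34 genes. Of these, 27 had a probe set of a single gene with a signal above a floor of 20.8 on at least 2 arrays. Over the whole array 9012 genes were measured in that way. For each gene the probe set with the highest mean signal was read. Of the 27 genes, 25 were above the floor on all 4 arrays, while Kcnmb1 was above it on 3 and Eno3 on 2. The remaining 7 genes are accounted for below. They are Myl6 and Actc1, read only by probe sets shared with other genes, and Acta1, Tnnc2, Mylpf, Pvalb and Mb, whose signals were dim.

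Smooth muscle cells contract when calcium-bound calmodulin activates myosin light chain kinase, which phosphorylates the regulatory light chain of myosin and lets it pull on actin filaments. Adipose tissue holds such cells in the walls of its arteries and veins, and pericytes along its capillaries, whereas the layered muscle of gut, bladder and genital ducts is visceral smooth muscle, in which the enteric gamma actin Actg2 is the characteristic actin. Skeletal muscle fibres use another set of actin, troponin and light chain genes, whose contraction is switched on through troponin. Fat cells and fibroblasts share with all these cells a cytoskeleton of actin, alpha-actinin, filamin, vinculin and cytoplasmic tropomyosins. The 34 genes were therefore divided into 5 vascular and pericyte genes, 8 visceral and shared smooth muscle genes, 9 general cytoskeletal genes and 12 skeletal muscle genes. The division is a convenience, since Acta2, Tagln and Myh11 are made by vascular and visceral smooth muscle alike and Des by skeletal muscle as well.

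Smooth muscle contractile genes were high on the array Obese 1 and closer together on the other 3 arrays. Actg2, calponin Cnn1, the tropomyosin Tpm2, desmin Des, transgelin Tagln, the myosin light chain kinase Mylk and the smooth muscle myosin heavy chain Myh11 were each at least 2-fold above the highest of the other arrays there. The capillary pericyte genes Rgs5, Pdgfrb and Cspg4 were not. Of 11 skeletal muscle genes with a probe set of their own, Tnnc2 was, but it was above the floor on that array only and so was not tested. Obese 2 lay near or below the control level for most of these genes, and 0 of the 27 genes differed between the obese and the control group in limma's moderated test (adjusted p between 0.575 and 0.992). Over the whole array that test passed 0 of 12929 probe sets (0% called), with 1073 at an unadjusted p under 0.05, and a plain test without moderation passed 0, with 882. Unadjusted, 2 of the 27 genes had a p under 0.05. The labels do not say that the arrays of a group came from separate animals, so p-values measure only the spread between these samples. In whole tissue, more cells of a type and more RNA per cell cannot be told apart.

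**Figure D1:**
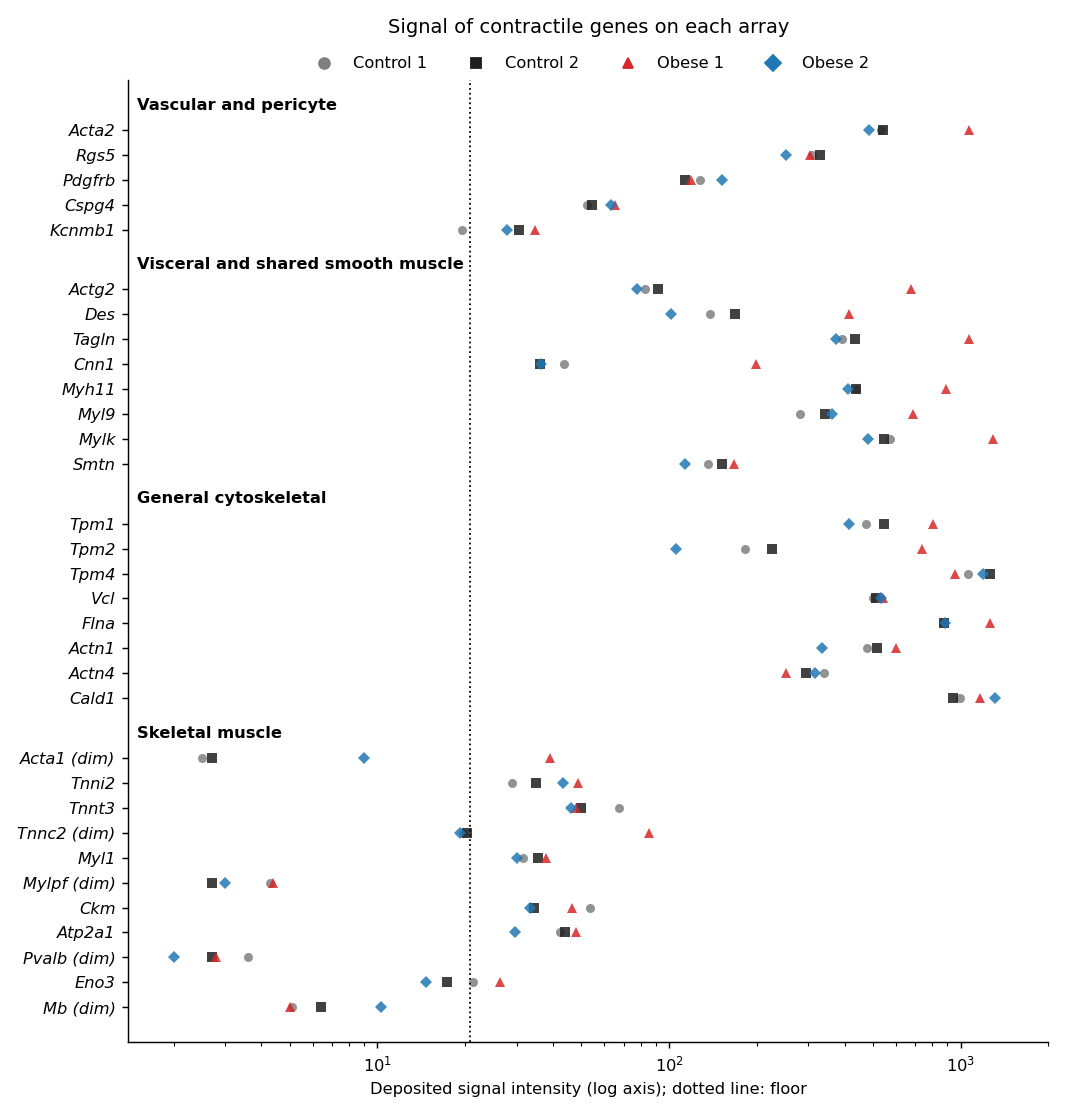
Deposited signal (log axis) of 32 contractile genes, 1 symbol per array, grouped by class, with the floor of 20.8 as a dotted line; genes marked dim were above it on fewer than 2 arrays. Obese 1 (red triangles) lies to the right of the other arrays for most smooth muscle genes, whereas the symbols of pericyte, cytoskeletal and skeletal muscle genes mostly lie together.

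Actg2, the actin of visceral smooth muscle, had a signal of 82.9 and 91.5 on the control arrays, 675.1 on Obese 1 and 77.4 on Obese 2. Obese 1 was thus 7.38-fold above the highest other array, and Obese 2 lay below both controls. The groups overlapped, and the log2 difference between them was 1.39 ± 0.93 (SE; limma adjusted p = 0.737). Among 12929 tested probe sets Actg2 had the tenth largest margin of Obese 1 over the highest other array. Cnn1, calponin, an actin-binding protein of differentiated smooth muscle, gave 43.6 and 36.0 in control tissue, 198.0 on Obese 1 and 36.4 on Obese 2. That was 4.54-fold above the highest other array, with the other 3 arrays close together. Its group difference was 1.10 ± 0.74 (limma adjusted p = 0.739).

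Tagln, transgelin, an actin-bundling protein and early marker of smooth muscle, gave 391.8 and 433.7 on the control arrays, 1068.7 on Obese 1 and 373.0 on Obese 2, so that Obese 1 was 2.46-fold above the highest other array. Des, which forms the intermediate filaments of muscle cells, gave 138.2 and 167.9, then 415.3 on Obese 1 and 101.3 on Obese 2. For desmin the obese arrays were the highest and the lowest of the 4. Myh11, the myosin heavy chain of smooth muscle, gave 437.2 and 438.7 in control tissue against 888.0 and 411.1 on Obese 1 and Obese 2. Mylk, which switches smooth muscle myosin on, gave 574.2 and 545.1 against 1287.9 and 481.5. In both genes Obese 1 alone stood out, 2.02-fold and 2.24-fold above the highest other array. The group differences of these 4 genes were between 0.43 ± 0.62 for Des and 0.62 ± 0.46 for Tagln, with 0.46 for Myh11 and 0.49 for Mylk (limma adjusted p between 0.761 and 0.885).

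Myl9, the regulatory light chain that Mylk phosphorylates, gave 281.8 and 343.4 on the control arrays, 688.3 on Obese 1 and 361.2 on Obese 2. Both obese arrays lay above both controls, but Obese 2 by little. The difference was 0.68 ± 0.31 (limma adjusted p = 0.625). Smtn, smoothelin, a protein of fully contractile smooth muscle, gave 135.8, 151.7, 167.0 and 113.1 on Control 1, Control 2, Obese 1 and Obese 2. Its Obese 1 signal was the highest of the 4 but only 1.10-fold above Control 2, unlike the other genes of its class. Its group difference of -0.06 ± 0.22 turned to 0.017 when each array was centred on its median.

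Over the 8 visceral and shared smooth muscle genes the median log2 difference between the groups was 0.55, against -0.04 over all tested probe sets. The summed signal of the 8 was 2086 and 2208 on the control arrays, 5388 on Obese 1 and 1955 on Obese 2, so that the sum on Obese 1 was 2.59-fold the mean of the others. The class median changed sign when Obese 1 was left out, to -0.16, and was 1.29 when Obese 2 was left out. Over all tested probe sets these medians were -0.08 without Obese 1 and -0.01 without Obese 2. Each of these comparisons sets a single obese array against the control arrays, so only differences are given for them and no p-value.

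**Figure D2:**
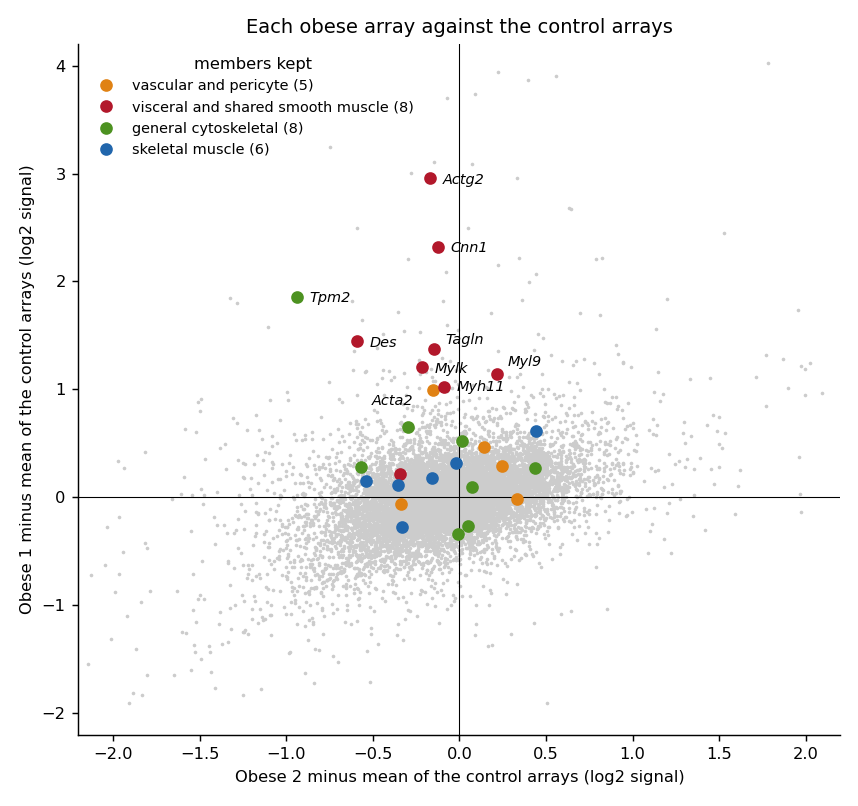
Log2 signal of Obese 1 (vertical) and of Obese 2 (horizontal) minus the mean of the control arrays, for the 12929 tested probe sets (grey, 20 of them outside the axes) and the 27 contractile genes coloured by class. The named genes lie between 0.99 and 2.95 on the vertical axis and between -0.94 and 0.22 on the horizontal axis; both axes share the control arrays, so points tend to fall along the diagonal.

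Vascular and pericyte genes were divided. Acta2, the alpha actin of vascular and visceral smooth muscle, behaved like the contractile genes above, with 532.5 and 541.6 on the control arrays, 1068.6 on Obese 1 and 483.4 on Obese 2. Obese 1 was 1.97-fold above the highest other array, just under the 2-fold limit used here, and the group difference was 0.42 ± 0.35 (limma adjusted p = 0.791). Rgs5, a regulator of G protein signalling made by pericytes and arterial muscle, gave 308.4, 328.2, 305.1 and 252.1 on Control 1, Control 2, Obese 1 and Obese 2. Both obese arrays lay below both controls, Obese 1 by very little. Pdgfrb, the receptor through which platelet-derived growth factor recruits mural cells, gave 128.1, 113.4, 119.4 and 151.7. Obese 1 lay between the control arrays. Cspg4, the NG2 proteoglycan of pericytes, gave 52.3, 54.3, 65.1 and 63.3, with both obese arrays above both controls and nearly equal to each other. Kcnmb1, the beta subunit of the calcium-activated potassium channel of smooth muscle, was dim, with 19.5, 30.6, 34.8 and 27.8. Leaving out Acta2, the group differences ran from -0.20 ± 0.15 for Rgs5 to 0.30 ± 0.26 for Kcnmb1 (limma adjusted p between 0.741 and 0.860), and the median of all 5 was 0.27. That median was 0.14 without Obese 1 and 0.29 without Obese 2.

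Smooth and striated muscle actins are known targets of serum response factor, which binds a 10-base element called the CArG box. The bases before the start of Acta2 are shown because it was highest on Obese 1, at 1.97-fold, just under the 2-fold limit. Those of Tpm1 are shown because its probe sets differed among themselves, and those of Acta1 as the skeletal actin. Each run holds the 250 bases before the start of the gene, from RefSeq on GRCr8, read 5′ to 3′ on the gene's own strand, and capitals mark each CArG box with at most 1 letter off.

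Acta2, chr1:241172504-241172753, minus strand: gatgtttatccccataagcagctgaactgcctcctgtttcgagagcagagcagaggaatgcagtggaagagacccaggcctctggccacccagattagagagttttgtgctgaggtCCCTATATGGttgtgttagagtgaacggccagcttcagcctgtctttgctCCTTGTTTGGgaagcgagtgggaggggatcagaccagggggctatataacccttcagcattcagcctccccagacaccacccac
Tpm1, chr8:76543416-76543665, minus strand: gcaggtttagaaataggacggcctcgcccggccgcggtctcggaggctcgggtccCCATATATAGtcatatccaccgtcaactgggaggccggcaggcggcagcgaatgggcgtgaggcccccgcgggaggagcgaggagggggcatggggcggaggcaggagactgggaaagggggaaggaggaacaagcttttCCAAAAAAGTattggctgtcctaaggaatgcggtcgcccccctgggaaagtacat
Acta1, chr19:68784195-68784444, minus strand: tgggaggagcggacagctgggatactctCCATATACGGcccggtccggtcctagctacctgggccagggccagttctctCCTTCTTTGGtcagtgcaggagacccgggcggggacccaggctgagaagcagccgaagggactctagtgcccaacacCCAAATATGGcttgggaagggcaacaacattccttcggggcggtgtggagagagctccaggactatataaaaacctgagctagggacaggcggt

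Acta2 and Tpm1 each held 2 such matches and neither held an exact one, whereas Acta1 held 3, of which CCAAATATGG was exact. The element reads the same on both strands, and near matches can overlap each other, as they did in Flna. Windows of 250 bases before to 50 after the start were available for 28 of the 34 genes (Actn4, Myh11, Myl9, Pdgfrb, Tagln and Tnnt3 had none). An exact CArG box stood in 2 of the 28, Acta1 and Actc1, against 1.64% of 33469 windows over all genes. With 1 letter off allowed, 13 of 28 genes held a match, against 21.3% of all windows. Members were counted by gene, with a match in any of its windows, and the background by single window. The shares are therefore not like measures. By class these were 8 of 11 skeletal genes, 3 of 8 cytoskeletal, 1 of 5 visceral and shared smooth muscle and 1 of 4 vascular genes. The visceral match was that of Smtn. Of the genes at least 2-fold above the other arrays on Obese 1, Actg2, Cnn1, Des, Mylk and Tpm2 had a window, and none of them held a match. A match describes letters only and is not a bound site.

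Among the general cytoskeletal genes Tpm2 alone was 2-fold above the other arrays on Obese 1. Tpm2, beta tropomyosin, which lies along the actin filament in muscle, gave 182.7 and 224.8 on the control arrays, 734.5 on Obese 1 and 105.9 on Obese 2. The obese arrays were 3.27-fold above and clearly below the controls, so that the group difference of 0.46 ± 0.83 averages opposite deviations (limma adjusted p = 0.907). Tpm1, alpha tropomyosin, gave 475.2, 544.9, 801.3 and 414.2 on Control 1, Control 2, Obese 1 and Obese 2 with its brightest probe set. A second probe set gave 146.8, 180.6, 344.9 and 123.7, also highest on Obese 1, while another gave 70.4, 93.0, 87.9 and 106.3, highest on Obese 2. Which Tpm1 transcripts each probe set reads is not given in the sources used here. Tpm4, a tropomyosin of non-muscle cells, gave 1057.6, 1259.8, 958.2 and 1192.4, lowest on Obese 1, and its second probe set was also lowest there.

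Among the crosslinkers and anchors of actin, Flna, filamin A, gave 869.5 and 878.6 on the control arrays, 1256.8 on Obese 1 and 884.2 on Obese 2. Its difference was 0.27 ± 0.19, nearly all of it from Obese 1, since Obese 2 differed from the controls by 0.02. Vcl, vinculin, which links actin to adhesion sites, gave 502.4, 513.7, 541.3 and 534.6, with both obese arrays a little above both controls. Its second probe set gave 398.1, 461.1, 540.1 and 564.9 and a difference of 0.37 ± 0.13, against 0.08 ± 0.12 for the first (limma adjusted p = 0.568 and 0.885). Actn1, an alpha-actinin of adhesion sites, gave 478.8, 515.5, 602.3 and 334.6, with Obese 1 highest and Obese 2 lowest. Its second probe set gave 193.7, 314.6, 210.5 and 168.4, with a group difference of -0.39 ± 0.26, against -0.15 ± 0.28 for the first. Actn4, the alpha-actinin of non-muscle cells, gave 340.9, 295.9, 251.7 and 315.9, lowest on Obese 1.

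Cald1, caldesmon, which holds back the actin-activated ATPase of myosin, had the smallest p of the 27 genes. It gave 992.9 and 940.5 on the control arrays and 1165.7 and 1307.3 on Obese 1 and Obese 2, and here Obese 2 was the higher obese array. The difference was 0.35 ± 0.13 (limma unadjusted p = 0.0392, adjusted p = 0.575). A second probe set gave 391.2 and 408.6 against 619.7 and 667.8, a difference of 0.69 ± 0.12 (unadjusted p = 0.00147, adjusted p = 0.402), and the remaining one was near the floor. None of them passed over all probe sets. Myl6, the essential light chain of smooth and non-muscle myosin, was read only together with Myl6b and Myl6l, at 1762, 1891, 1946 and 2222 on Control 1, Control 2, Obese 1 and Obese 2. The 8 cytoskeletal genes with their own probe set had a median difference of 0.13, which was 0.0045 without Obese 1 and 0.27 without Obese 2.

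The skeletal muscle genes of the set were dim, with no signal above 85.2. Of 12 genes, 11 had a probe set of their own, and their summed signal was 280.0 and 251.2 in control tissue, 391.9 on Obese 1 and 240.8 on Obese 2. The fast light chain Mylpf (now Myl11), parvalbumin Pvalb and myoglobin Mb, which belong to the abundant proteins of muscle fibres, were under the floor on all 4 arrays, with highest signals of 4.4, 3.6 and 10.3. Tnnc2, fast troponin C, was above the floor only on Obese 1, with 19.6, 20.3, 85.2 and 19.2, and was 4.10-fold the floor there. Acta1, the skeletal actin, was likewise above it only on Obese 1, with 2.5, 2.7, 39.0 and 9.0, and was 1.88-fold the floor there. Because both were above the floor on 1 array only, neither entered the test.

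For the other 6 skeletal genes the signal was above the floor on at least 2 arrays, a filter that leaves out a dim gene seen on Obese 1 alone. The fast troponin I gene Tnni2 gave 28.9, 35.1, 48.8 and 43.2 on Control 1, Control 2, Obese 1 and Obese 2, with both obese arrays above both controls and a difference of 0.53 ± 0.21 (limma unadjusted p = 0.0455, adjusted p = 0.589). Its partner in the troponin complex, Tnnt3, gave 67.4, 50.1, 48.0 and 46.2, with both obese arrays below. Muscle creatine kinase Ckm gave 53.4, 34.4, 46.5 and 33.5, and the calcium pump Atp2a1 gave 42.4, 43.9, 47.9 and 29.7. The groups overlapped in both. The light chain Myl1 gave 31.5, 35.6, 38 and 30.0, and the muscle enolase Eno3 was near the floor, with 21.3, 17.3, 26.3 and 14.7. The median difference of these 6 genes was -0.05, with -0.24 without Obese 1 and 0.17 without Obese 2. Cardiac actin Actc1 was read only by probe sets that also match Acta2. Of these, 1 gave 46.5, 52.8, 59.7 and 47.8, and another gave 21.9, 9.5, 61.1 and 29.2, highest on Obese 1.

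**Figure D3:**
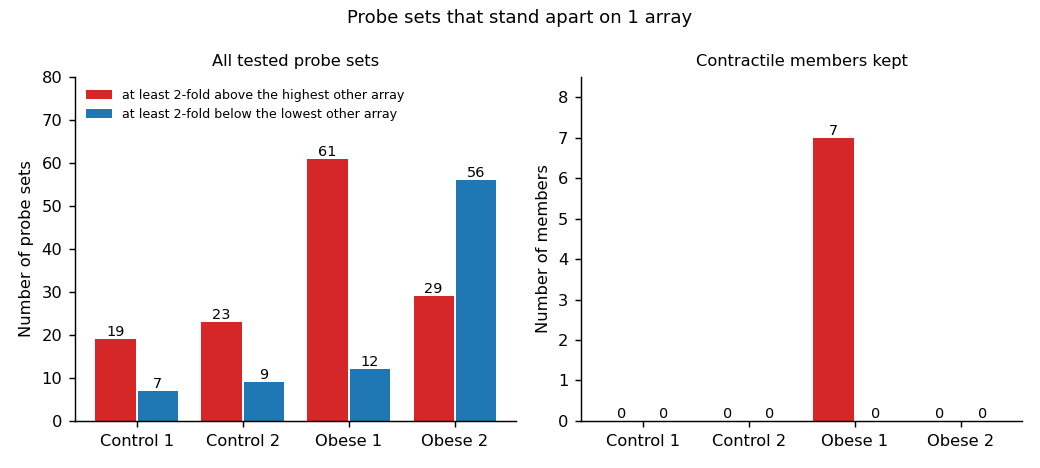
Number of tested probe sets (left, of 12929) and of contractile genes (right, of 27) that were at least 2-fold above the highest or below the lowest of the other 3 arrays, for each array. Obese 1 has 61 probe sets above, 7 of them contractile genes, and the other arrays have 0 contractile genes in either direction.

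The 7 genes at least 2-fold above every other array on Obese 1 were 25.9% of the 27, where 0.472% of all tested probe sets met that limit (61 of 12929). The same limit was met by 19 probe sets on Control 1 (0.147%), 23 on Control 2 (0.178%) and 29 on Obese 2 (0.224%), with 0 contractile genes among them. The genes were chosen with earlier results of these data known, and counts at this limit were added after seeing the data. These shares therefore describe the list and test nothing. A signal at least 2-fold below the lowest other array was found for 0.0541% of probe sets on Control 1, 0.0696% on Control 2, 0.0928% on Obese 1 and 0.433% on Obese 2, again with 0 contractile genes. Obese 1 was the highest array for 20 of the 27 genes, against 22.7% of all probe sets. Obese 2 was the lowest for 15 of 27, against 37.0%. In the comparison of groups, 6 contractile genes had both obese arrays above both controls (Cspg4, Myl9, Vcl, Flna, Cald1 and Tnni2), or 22.2%, where 15.6% of all probe sets did. The opposite held for 2 genes (Rgs5 and Tnnt3), or 7.41%, where 24.4% of all probe sets did. These counts depend on scaling, since the median signal was 83.1, 82.8, 82.2 and 75 on Control 1, Control 2, Obese 1 and Obese 2. With each array centred on its median, 8 of 26 tested genes lay above and 0 below, against 21.8% and 16.9% of all probe sets.

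Genes that accompany these proteins gave a mixed picture. In a list of 36 regulators and partners of smooth muscle contraction, 29 were tested, 16 were higher and 13 lower in the obese group, 0 passed in limma (2 at an unadjusted p under 0.05), and the median was 0.04. Among the brightest probe sets of these genes, those of Lmod1 and Pln met the 2-fold limit on Obese 1, and so did a second probe set of Synpo2. Lmod1, leiomodin, which nucleates actin filaments in smooth muscle, gave 49.6, 56.0, 118.8 and 39.8 on Control 1, Control 2, Obese 1 and Obese 2. Pln, phospholamban, the inhibitor of the calcium pump, gave 27.5, 33.2, 67.9 and 20.7. Srf, the factor that binds CArG boxes, gave 224.5, 216.4, 261.2 and 245.5, and its coactivator Mrtfa gave 117.3, 123.4, 98.3 and 70.6, with a difference of -0.53 ± 0.21. Itga7, a laminin receptor of muscle, had the largest t of the list and was higher on both obese arrays, with 526.2, 540.3, 680.6 and 878.3. It differed by 0.54 ± 0.16, and Ppp1r12a, which targets phosphatase to myosin, by 0.45 ± 0.19. Fhl2 differed by -0.25, Mcam by 0.26 and the small GTPase Rhoa by -0.20. For these 6 genes the limma adjusted p was between 0.515 and 0.732.

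In a list of 33 genes of actin turnover and adhesion, 27 were tested, 12 were higher and 15 lower, 0 passed in limma (2 at an unadjusted p under 0.05) and the median was -0.02. Nonmuscle myosin Myh10 differed by -0.72 ± 0.24, with 115.1, 141.9, 94.1 and 64.2 on Control 1, Control 2, Obese 1 and Obese 2, and the Arp2/3 subunit Arpc3 by -0.28. Filip1l differed by 0.49, palladin Palld by 0.33, gelsolin Gsn by 0.15 and vimentin Vim by 0.06, a sign that turned with quantile normalization and cyclic loess. Of 48 further skeletal muscle genes 46 had a probe set and 20 of these were under the floor on all 4 arrays, among them the myosin heavy chains Myh2, Myh4 and Myh7, the muscle transcription factor Myod1 and titin cap, Tcap. In the 24 that were tested, 9 were higher and 15 lower, 0 passed in limma, 0 had an unadjusted p under 0.05 and the median was -0.06. Hspb7, Myh1, Chrna1, Tnni1 and Ldb3, named by rule, differed by 0.43, 0.44, -0.47, -0.22 and 0.15 (limma adjusted p between 0.637 and 0.910). Not all of them were dim. Myh1 gave 741.5, 490.2, 738.3 and 905 on Control 1, Control 2, Obese 1 and Obese 2, and Ldb3 gave 237.4, 271.6, 210.5 and 376.8. Of the 46 with a probe set, 0 were 2-fold above the other arrays on Obese 1.

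**Figure D4:**
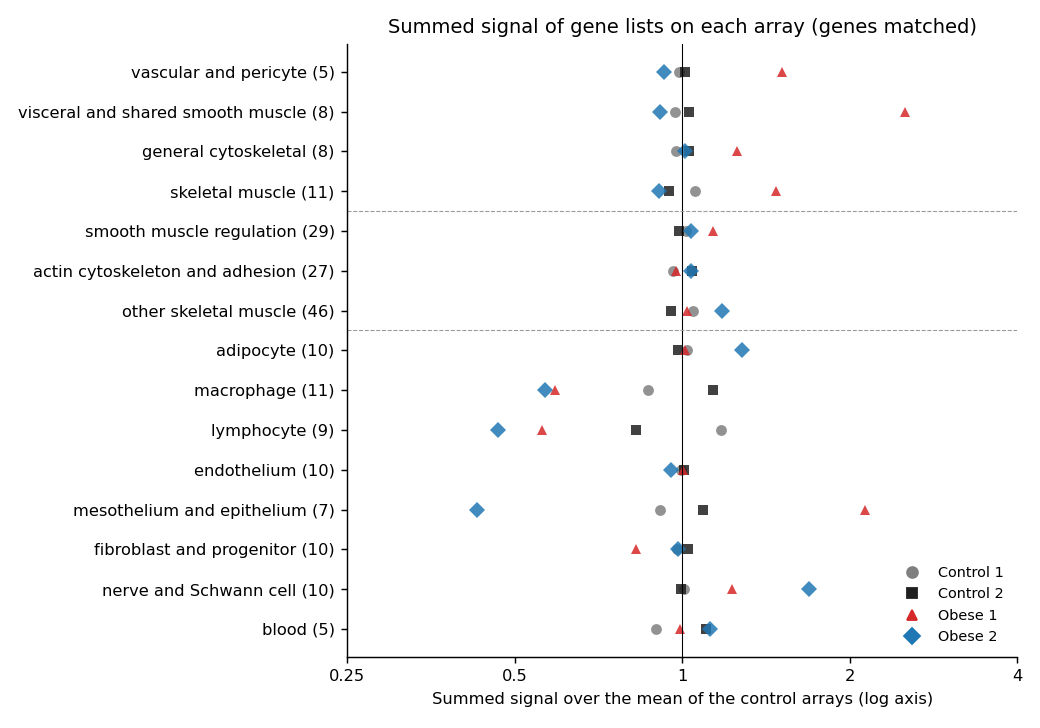
Summed signal of each gene list on each array, divided by the mean of the control arrays (log axis), with the number of genes matched; contractile classes are above the first dashed line, related genes between the lines and markers of cell types below. On Obese 1 the visceral and shared smooth muscle genes and the mesothelial and epithelial markers are both more than 2-fold above the control mean, while endothelial markers lie at the control level.

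Markers of other cell types moved with the smooth muscle genes on Obese 1. Of 7 measured mesothelial and epithelial markers, 5 were at least 2-fold above every other array there, and their summed signal was 814.6 and 971.8 on the control arrays, 1901 on Obese 1 and 382.1 on Obese 2. The epithelial adhesion gene Epcam gave 25.4, 20, 198.2 and 13.8 on Control 1, Control 2, Obese 1 and Obese 2, and E-cadherin Cdh1, under the floor on the other arrays, gave 74.0 on Obese 1. The keratins Krt8, Krt18 and Krt19 gave 192.7, 187.5 and 405.4 on Obese 1, against at most 87.8, 64.7 and 118.5 elsewhere. The mesothelial genes Msln and Wt1 were less far apart, at 1.20-fold and 1.32-fold above the highest other array, and both were lowest on Obese 2. Genes of digestive enzymes of the exocrine pancreas stood apart on Obese 1 as well. Trypsinogen Prss1 gave 26.5, 16.4, 361.5 and 27.4, and pancreatic lipase Pnlip gave 29.0, 39.9, 496.8 and 44.7. These pancreatic genes were picked after their values were seen. The part of such tissue in the smooth muscle signal was not tested.

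Markers of blood vessels were mixed. The summed signal of 10 endothelial markers was 3129 and 3165 on the control arrays, 3159 on Obese 1 and 3002 on Obese 2, with 0 of 10 at the 2-fold limit on Obese 1. Obese 1 was the highest array for 4 of the 10, and Vwf and Emcn were highest on Obese 1 and lowest on Obese 2. Vwf, the von Willebrand factor, gave 206.7, 207.0, 292.8 and 166.8 on Control 1, Control 2, Obese 1 and Obese 2, and endomucin, Emcn, gave 445.2, 421.2, 480.1 and 340.4. Others went differently, and Kdr was lowest on Obese 1, with 339.5, 376.6, 278.1 and 389.6. Both obese arrays lay below both controls for Tie1 and Egfl7, and above both for Cldn5 and Esam. The summed signal of 10 adipocyte markers, among them Plin1 and Fabp4, was 19683 and 18973 in control tissue, 19512 on Obese 1 and 24766 on Obese 2, and none of the 10 was under the floor on all arrays. The 10 fibroblast and 5 blood cell markers held 0 genes at the 2-fold limit on Obese 1. Macrophage markers summed to 8900 and 11634 in control tissue against 6050 and 5806 on Obese 1 and Obese 2, both low. Lymphocyte markers summed to 1558 and 1094 against 740.6 and 619.3, but the genes differed. Cd4 gave 569.1, 540.8, 303.2 and 270.1 on Control 1, Control 2, Obese 1 and Obese 2, and Cd37 gave 221.7, 227.7, 119.8 and 79.6. Cd3d, Cd3e, Cd3g, Cd8a, Cd79b and Lck were instead high on Control 1, with Control 2 closer to the obese arrays. Cd3g, for example, gave 150.8, 65.3, 74.3 and 70.0. Cd2 was highest on Control 1 and lowest on Obese 2. Nerve markers summed to 3386, 3344, 4132 and 5677, highest on Obese 2, with Sox10 and Nefm under the floor on all arrays and Uchl1 2-fold above the other arrays on Obese 1. The largest signals in that sum were those of S100b and Pmp22, with 3269.8 and 1683.7 on Obese 2. Prph was lowest on Obese 2, with 24.2, so the markers did not move together.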

How the data were processed

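The authors deposited linear intensity values, 1 for each probe set on each array. How the scans were scaled is not given in the sources used here, but the mean after trimming 2% at each end was 149.6 to 149.8 on the 4 arrays, so values were used as deposited. The table has 15923 probe sets, of which 57 are controls and were not used. Among the other 15866 the platform annotation names a single gene for 12783 and several genes for 312, while 2771 are unnamed. Mylpf was found through its current symbol Myl11 in the RefSeq table of GRCr8.

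Signals under the floor (20.8, which 20% of all values lie below) were set to it before taking log2. The 12929 probe sets above the floor on at least 2 arrays entered 1 limma fit (limma 3.58.1 under R 4.3.3, empirical Bayes with a variance trend, 5.83 residual and prior degrees of freedom in all). It gave two-sided p-values for the obese against the control arrays, adjusted by Benjamini-Hochberg over every tested probe set and called at 0.05. The SE printed beside a log2 difference is limma's moderated one. Permuting 2 against 2 arrays reaches no p under 0.333 and was not done. The code was tested on simulated data.

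The members, their classes, the related genes and the marker lists were chosen with earlier results of these data known, so no p was adjusted over a list and no list was tested. Named genes were all members, and from each related list the 2 largest and 2 smallest t and the 2 highest means. The count of genes 2-fold above every other array was added after seeing the data, and Lmod1, Pln, Srf and the marker genes were named after their values were seen.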

Additional observations from a re-analysis of the deposited data

How the results depend on the processing

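Precision was limited by the number of arrays, 2 per group, and dim genes by the floor. The number of probe sets past the limma threshold was 0 as reported, 3 with a pseudocount of 16, 6 with no filter and 1 without a variance trend. It ranged from 0 to 43 when 1 array was left out (43 without Obese 1, 40 without Obese 2), and that of contractile genes from 0 to 5 (5 without Obese 2). Under the other alternatives 0 contractile genes passed. A fit with 1 array left out has a single array in 1 of the groups, so the spread within that group was not measured. The contractile genes were also chosen with earlier results of these data known. The counts with 1 array left out therefore show only how far the result depends on single arrays. They are not read as differences between obese and control tissue. Genes whose groups did not overlap numbered 8 as reported and 11 to 25 with 1 array left out, where fewer arrays have to separate. Without Obese 1, 7 lay above and 15 below the controls, against 28.7% and 46.8% of all probe sets, and without Obese 2, 21 above and 4 below, against 32% and 36.6%. Leaving out 1 array moved the class medians between 0.14 and 0.30 for vascular genes, between -0.16 and 1.29 for visceral and shared smooth muscle genes, between 0.0045 and 0.27 for cytoskeletal genes and between -0.33 and 0.17 for skeletal genes, where the lowest value is that of 5 genes, since Eno3 failed the filter without Obese 1. No scaling, floor or filter moved a class median by more than the spread between arrays, but with the floor at the 40th percentile no skeletal gene was left. At limits of 1.5-fold and 3-fold, both added after seeing the data, 9 and 3 genes stood apart on Obese 1, against 1.28% and 0.209% of all probe sets. The 3 were Actg2, Cnn1 and Tpm2. At 2-fold the count was 6 to 8 under every other alternative that bears on it.

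With 1 array left out, log2 differences changed sign for 18 named genes. Their lowest and highest values were -0.17 and 2.95 for Actg2, -0.12 and 2.32 for Cnn1, -0.14 and 1.37 for Tagln, -0.59 and 1.45 for Des, -0.22 and 1.20 for Mylk, -0.091 and 1.02 for Myh11 and -0.15 and 0.99 for Acta2. They were -0.94 and 1.86 for Tpm2, -0.30 and 0.66 for Tpm1, -0.27 and 0.047 for Tpm4, -0.57 and 0.28 for Actn1, -0.34 and 0.22 for Smtn, -0.014 and 0.33 for Pdgfrb, -0.16 and 0.18 for Myl1, -0.44 and 0.20 for Ckm, -0.54 and 0.15 for Atp2a1, -0.069 and 0.19 for Vim and -0.27 and 0.57 for Ldb3. Smtn gave 0.017 with median centring, and Vim gave -0.0026 with quantile normalization and -0.034 with cyclic loess. The cause was not tested.

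Arrays of the same number did not deviate together (r = 0.048 across 12929 probe sets, which are not independent). With the replicate number as a block 0 probe sets and 0 contractile genes passed, with 1103 probe sets at an unadjusted p under 0.05, against 1073 without it.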

Other observations

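The probe sets that stood apart on Obese 1 fell into recognisable groups, given here as values of that array and chosen after they were seen. Of 12929 tested probe sets, the largest margins over the highest other array belonged to trypsinogen Prss1 (3.72 on the log2 scale), the basal keratin Krt15 (3.51), pancreatic lipase Pnlip (3.47), Prss3b (3.35), chymotrypsin C, Ctrc (3.22), the cornified envelope gene Sprr1a (3.10), the basal keratin Krt5 (3.02) and Epcam (2.96). Actg2 had rank 10 with 2.88, after 1 probe set with no gene symbol. Carboxypeptidase B, Cpb1, followed with 2.63. Further down were the keratin Krt7 with 2.29, the zymogen granule genes Zg16 with 1.87 and Sycn with 1.69, and Mal with 1.59.

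Other smooth muscle genes stood in the same list, although not as members. A second probe set of Synpo2, which binds actin and filamin in muscle, gave 94.7 and 127.1 on the control arrays, 331.2 on Obese 1 and 104.5 on Obese 2. Its brightest probe set gave 413.0, 473.5, 449.7 and 603.1 and did not stand apart. Nexn, nexilin, an actin-binding protein of muscle, gave 49.0, 53.8, 117.3 and 45.9.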
